A study of Homo sapiens with 4 samples.

Results

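A set of 10 keratin genes was followed in the human pancreatic ductal carcinoma line PANC-1 after knockdown of SIRT1, an NAD-dependent protein deacetylase. The members are KRT7, KRT8, KRT18, KRT19, KRT10, KRT15, KRT17, KRT80, KRT81 and KRT86, 10 of the 16878 genes in the deposited tables and 10 of the 41 keratin genes there. They were taken by gene symbol, from a list drawn up with earlier results of these data known. RNA-seq gave 4 libraries, 2 labelled Control and 2 labelled siSIRT1, with 48 h between transfection and harvest. All 4 come from this line, the study lists a single siSIRT1 sequence, and what the control cells received is not described beyond the word control. The labels do not say whether libraries of a group came from separate cultures, so p-values measure only the spread between these libraries.

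Keratins are the intermediate filament proteins of epithelial cells. A filament is built from pairs of an acidic type I keratin and a basic or neutral type II keratin, so cells make both types together. KRT8 (type II) and KRT18 (type I) are the pair that simple, single-layered epithelia make first. KRT7 and KRT19 join them in ducts, including those of the pancreas. The other members belong to different epithelia. KRT15 and KRT17 are keratins of the basal layer and of activated or stressed epidermis, KRT10 marks the upper epidermal layers, KRT81 and KRT86 are hair keratins, and KRT80 is a type II keratin found widely in epithelia. The working name of the set, keratins of simple and ductal epithelium, therefore covers 4 of the 10 members by their known sites of expression.

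Values are FPKM, mapped fragments normalised to transcript length and library size. The FPKM of all genes summed to between 397094 (Control replicate 2) and 426279 (siSIRT1 replicate 1), so comparisons between libraries depend on how they are scaled. Depth was estimated from the steps in low FPKM values at 9140000 and 9150000 reads for the Control libraries and at 8690000 and 9030000 for siSIRT1. Fold changes are differences of log2(FPKM + 1), siSIRT1 minus Control, from limma fitted to the 12191 genes whose mean reached 1 FPKM. The added 1 shrinks the log2 fold changes of scarce genes more than those of abundant ones. A gene is called when its adjusted p is under 0.05. The median over all genes tested was 0.07. The libraries of a group differed more than counting noise allows, by 1.71 times in squared difference for Control and 5.32 times for siSIRT1. Markers of acinar, endocrine, endothelial and fibroblast cells summed to at most 0.81 FPKM per list and library. Of the leukocyte markers, PTPRC was between 0.97 and 1.29 FPKM, whereas CD68, which other cells also make, was at 62.96 and 60.77 FPKM in the Control pair and 42.34 and 39.09 FPKM in the siSIRT1 pair. The part of CD68-expressing cells in the results was not tested.

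First, the knockdown itself was examined. SIRT1 was at 10.46 and 10.25 FPKM in the Control pair, against 1.80 and 2.05 FPKM in the siSIRT1 pair, so that 18.6% of the Control level remained. The log2 fold change was -1.96 (standard error, SE, 0.11, adjusted p = 1.33e-05). The siRNA and its guide strand, the strand that pairs with the target, are shown because a guide can also act on other transcripts through its bases 2 to 8, given here in capitals.

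siSIRT1 sense strand: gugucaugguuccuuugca

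siSIRT1 guide strand: uGCAAAGGaaccaugacac

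The sense sequence matched the SIRT1 transcript at 1 place, in the coding sequence. The heptamer that pairs with bases 2 to 8 of the guide, CCTTTGC in DNA letters, occurred in 3219 of 11526 canonical transcripts of tested genes (27.9%). Searched on the transcript strand only, it was found in 0 of the 10 members, which says only that these letters are not in those transcripts.

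Of the 10 members, 9 passed the filter on low values and 7 were called, 6 higher and 1 lower in siSIRT1. Over all genes tested, 37.1% were called, 24.0% higher and 13.1% lower. In 8 of the 9 members the siSIRT1 libraries lay wholly outside the Control values, which held for 69.0% of all genes tested. Because of how the list was drawn up these counts are a description, and the 6 include KRT86, which passed the filter only through its siSIRT1 values. The count of 7 fell to 4 under median-of-ratios or upper-quartile scaling, and to 4 when either Control library was left out. KRT15, KRT80, KRT81 and KRT10 were called in each of those fits and in the others run. In a bulk sample, fewer cells that make a gene and less of its RNA per cell cannot be told apart.

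**Figure D1:**
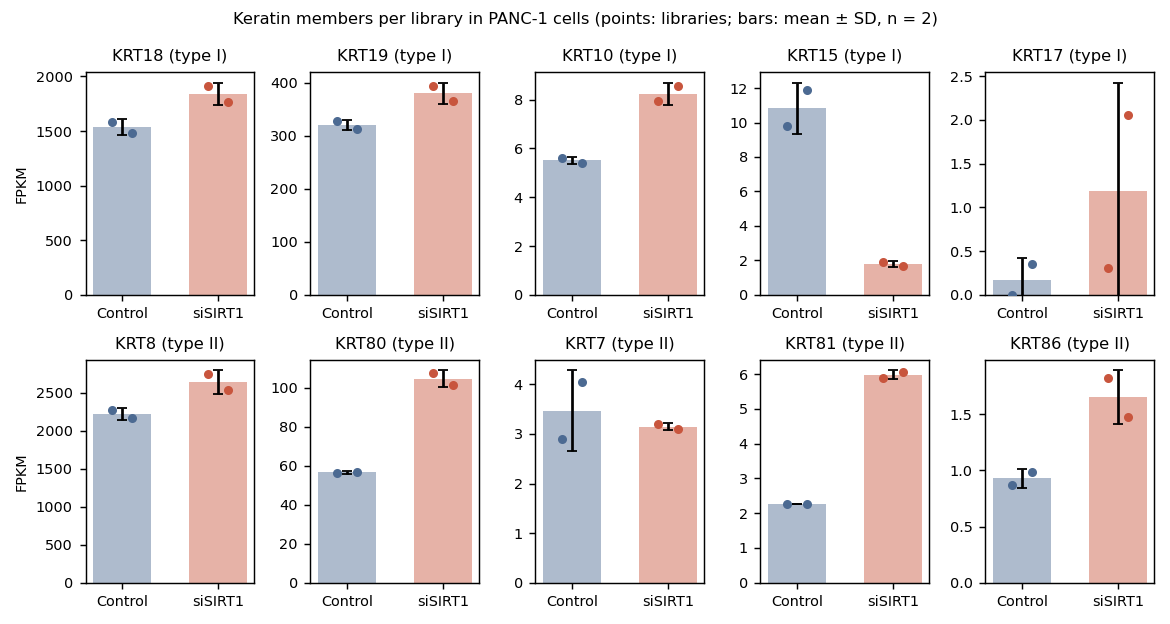
FPKM of each of the 10 keratins in the 2 Control and 2 siSIRT1 libraries, on a linear axis of its own from 0 (points are libraries, bars are means, error bars are SD, cut at 0 for KRT17). KRT80 and KRT81 stood above both Control values, KRT15 fell from 10.8 to 1.78 FPKM, and KRT17 was above 1 FPKM in siSIRT1 replicate 2 alone.

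The 3 abundant keratins came first. KRT8 was the most abundant member, between the sixth and the eighth gene of the whole table in every library by rank. It was at 2271.79 and 2164.01 FPKM in the Control pair, against 2745.12 and 2528.65 FPKM in the siSIRT1 pair. Both siSIRT1 values were above both Control values, a ratio of means of 1.19. The log2 fold change was 0.25 (SE 0.09), and the adjusted p of 0.0513 missed the threshold. It passed with the replicate number as a block (adjusted p = 0.00220), under quantile normalization (0.00112), with equal FPKM sums (0.00541) and with a pseudocount of 0.1 (0.0433). It did not pass under upper-quartile scaling (adjusted p = 0.164), without the mean-variance trend (0.0739) or without the filter (0.153). It was further from the threshold under median-of-ratios scaling (log2 fold change 0.16, adjusted p = 0.321). The same held without Control replicate 1 or 2, at log2 fold changes of 0.28 and 0.21. Without siSIRT1 replicate 1 or 2 KRT8 passed, at log2 fold changes of 0.19 and 0.31.

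KRT18, its type I partner, was at 1587.19 and 1484.12 FPKM in the Control pair, against 1913.73 and 1770.03 FPKM in the siSIRT1 pair. It was higher by a log2 fold change of 0.26 (SE 0.08, adjusted p = 0.0350). KRT19, the smallest keratin and a usual duct marker, was at 326.78 and 312.82 FPKM in the Control pair, against 393.94 and 364.83 FPKM in the siSIRT1 pair. Its log2 fold change was 0.25 (SE 0.06, adjusted p = 0.0178). The groups did not overlap for either gene. Both calls were lost under median-of-ratios scaling, which left log2 fold changes of 0.17 (adjusted p = 0.249) for KRT18 and 0.16 (adjusted p = 0.165) for KRT19. Upper-quartile scaling lost both calls as well (adjusted p = 0.119 for KRT18 and 0.0814 for KRT19). Without the filter (adjusted p = 0.115 and 0.0601) or the mean-variance trend (0.0673 and 0.0735), both calls were lost too. They were also lost without Control replicate 1 (adjusted p = 0.300 for KRT18 and 0.143 for KRT19) and without Control replicate 2 (0.491 and 0.263, adjusted p).

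Ratios between genes of the same library do not change when each library is scaled by a single factor. Quantile normalization is not such a scaling and can change them. KRT18 was at 0.699 and 0.686 times KRT8 in Control and at 0.697 and 0.700 times KRT8 in siSIRT1. KRT19 was at 0.144 and 0.145 times KRT8 in Control and at 0.144 and 0.144 times KRT8 in siSIRT1. The ranges of the groups overlapped for both ratios, and the means differed by factors of 1.01 and 0.998. With 2 libraries a group, an exact permutation test of a single value cannot go below a p of 0.333, and no other test was made of these ratios. KRT8, KRT18 and KRT19 together held 97.2% to 98.2% of the FPKM of all 41 keratins.

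KRT8 and KRT18 lie beside each other on chromosome 12 (GRCh37, KRT8 at 53290971 to 53343738 on the minus strand, KRT18 at 53342655 to 53346690 on the plus strand). Their gene models overlap by 1084 bases on opposite strands, and whether the counting used strand is not given in the sources used here. The annotation names 51 pseudogenes after KRT8, 67 after KRT18 and 5 after KRT19, and how reads shared with such copies were assigned is not given either.

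Outside this trio, the called members moved in different directions and by more on the log2 scale. KRT80 (chromosome 12, 52562780 to 52585798), the fourth most abundant member, was at 56.23 and 57.11 FPKM in the Control pair, against 107.69 and 101.64 FPKM in the siSIRT1 pair. It rose 1.85-fold, with a log2 fold change of 0.87 (SE 0.06, adjusted p = 2.67e-05). These values rested on about 1949 and 1982 reads in Control and about 3550 and 3481 in siSIRT1. Relative to KRT8 in the same library, KRT80 went from 0.0248 and 0.0264 to 0.0392 and 0.0402, so the groups did not overlap on this measure either.

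KRT15 was the only member called lower. It was at 9.79 and 11.89 FPKM in the Control pair, against 1.90 and 1.65 FPKM in the siSIRT1 pair, from about 146 and 178 reads to about 27 and 24 reads. The log2 fold change was -2.09 (SE 0.13, adjusted p = 1.79e-05), and the mean was 6.11-fold lower. KRT15 (chromosome 17, 39669997 to 39678781) and KRT19 (39679869 to 39684560) are neighbours on the minus strand, 1.1 kb apart. KRT15 was at 0.0300 and 0.0380 times KRT19 in Control and at 0.00482 and 0.00452 times KRT19 in siSIRT1.

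KRT10 (chromosome 17, 38974369 to 38978866) was at 5.62 and 5.40 FPKM in the Control pair, against 7.93 and 8.57 FPKM in the siSIRT1 pair. It rose with a log2 fold change of 0.51 (SE 0.10, adjusted p = 0.00553). KRT7, which with KRT19 is a usual marker of pancreatic ducts, was scarce in this line. It was at 2.89 and 4.04 FPKM in the Control pair, against 3.19 and 3.09 FPKM in the siSIRT1 pair, within the Control range. Its log2 fold change was -0.10, with a 95% interval from -0.44 to 0.24 (adjusted p = 0.647). The Control libraries held 63.69 and 61.01 FPKM of SOX9, a transcription factor of duct cells.

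**Figure D2:**
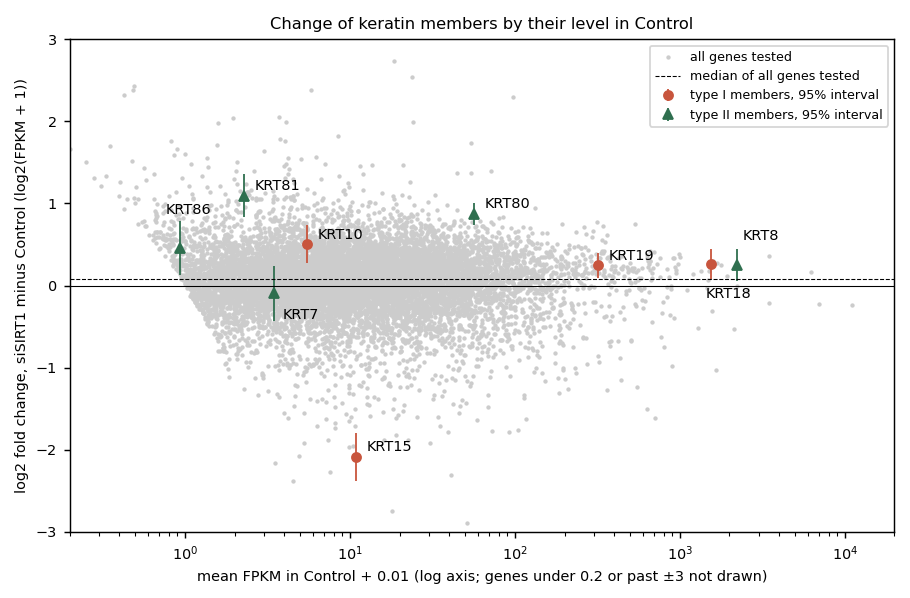
Log2 fold change (siSIRT1 minus Control, linear axis) against the mean FPKM in Control (log axis) for the genes tested (grey) and the 9 tested keratins with 95% intervals (circles type I, triangles type II). KRT8, KRT18 and KRT19 sit together on the right between 0.25 and 0.26, while the less abundant members spread from -2.09 for KRT15 to 1.09 for KRT81.

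KRT81 and KRT86, the hair keratins, share so much sequence that they are described jointly. Their coding sequences were identical at 89.6% of 1519 aligned positions, with 605 identical bases in a row. Of the 1880 stretches of 50 bases in the KRT81 transcript, 38.4% also occur in KRT86. Below is the pair of 30-base stretches with the most differences among those whose flanks align well, at coding bases 1240 to 1269 of both genes. It is shown because only reads over such places can tell the genes apart, and capitals mark the 8 bases that differ.

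KRT81: gagcagaggctAtgTgaAggcAtTggGGcT

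KRT86: gagcagaggctGtgCgaGggcGtCggCTcG

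KRT81 was at 2.27 FPKM in both Control libraries, about 38 reads each, and at 5.90 and 6.07 FPKM in siSIRT1. It rose with a log2 fold change of 1.09 (SE 0.11, adjusted p = 0.000227). KRT86 was at 0.87 and 0.99 FPKM in the Control pair, against 1.82 and 1.48 FPKM in the siSIRT1 pair. Its log2 fold change was 0.46 (SE 0.14, adjusted p = 0.0359), and it passed the filter only through its siSIRT1 values. The call for KRT86 was lost in 7 of the 12 other fits, among them median-of-ratios scaling (adjusted p = 0.0587). It was also lost without Control replicate 1, Control replicate 2 or siSIRT1 replicate 1 (adjusted p = 0.168, 0.0985 and 0.125). The KRT86 gene model (chromosome 12, 52643084 to 52702947, plus strand) encloses KRT81 (52679697 to 52685318, minus strand). The split of reads between them is therefore uncertain. The KRT86 gene model also overlaps that of KRT7 by 2887 bases on the same strand, and how reads there were assigned is not given. As a single feature, KRT81 plus KRT86 was at 3.14 and 3.26 FPKM in the Control pair, against 7.72 and 7.55 FPKM in the siSIRT1 pair. That sum rose with a log2 fold change of 1.04 (SE 0.11, adjusted p = 0.000219).

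KRT17 was at the limit of detection and was not tested. It was listed at 0 and 0.35 FPKM in Control, from about 0 and 5 reads, and at 0.31 and 2.06 FPKM in siSIRT1, about 4 and 27 reads. A count of 0 in Control replicate 1 allows up to 0.228 FPKM (3 reads, counting error only). Only siSIRT1 replicate 2 stood above the others, and siSIRT1 replicate 1 was within the Control range. Fitted without the filter, its log2 fold change was 0.79 (SE 0.45, adjusted p = 0.292). The annotation names 8 pseudogenes after KRT17.

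By type, the sums were carried by the abundant pair. The 5 type I members summed to 1929 and 1815 FPKM in the Control pair and to 2318 and 2147 FPKM in the siSIRT1 pair, a ratio of 1.19. The 5 type II members summed to 2334 and 2228 FPKM in the Control pair and to 2864 and 2641 FPKM in the siSIRT1 pair, a ratio of 1.21. Type I made up 45.2% and 44.9% of the summed level in Control and 44.7% and 44.8% in siSIRT1. The groups did not overlap in this share, but the means differed by only 0.28 percentage points, close to the 0.263 points of SD within Control. The difference of -0.28 points was -0.0942 without Control replicate 1 and -0.466 without Control replicate 2. Without the abundant trio, each sum followed 1 gene, KRT15 for type I and KRT80 for type II. KRT10, KRT15 and KRT17 summed to 15.4 and 17.6 FPKM in the Control pair and to 10.1 and 12.3 FPKM in the siSIRT1 pair, whereas KRT7, KRT80, KRT81 and KRT86 went from 62.3 and 64.4 to 118.6 and 112.3 FPKM. KRT15 was the only one of the 3 type I genes that was lower, while KRT10 rose. Of the 4 type I members tested 3 were called higher and 1 lower, and of the 5 type II members 3 were called higher and 0 lower, with KRT86 among the 3. No test of a difference between the types was made.

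By level in Control, 2 of the 3 members with at least 100 FPKM were called, both higher, where 61.4% of all genes at that level were called. Both members between 10 and 100 FPKM were called, KRT80 higher and KRT15 lower, against 46.8% of all genes. Of the 4 tested members under 10 FPKM 3 were called, all higher, where 25.8% of all genes were called in either direction. KRT86 is again 1 of these 3, so the count is a description only. The order of levels in Control ran from KRT8 over KRT18, KRT19, KRT80, KRT15, KRT10, KRT7, KRT81 and KRT86 to KRT17, with no overlap between neighbours. In siSIRT1 KRT15 moved behind KRT10, KRT81 and KRT7, and the values of KRT15, KRT86 and KRT17 overlapped there.

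**Figure D3:**
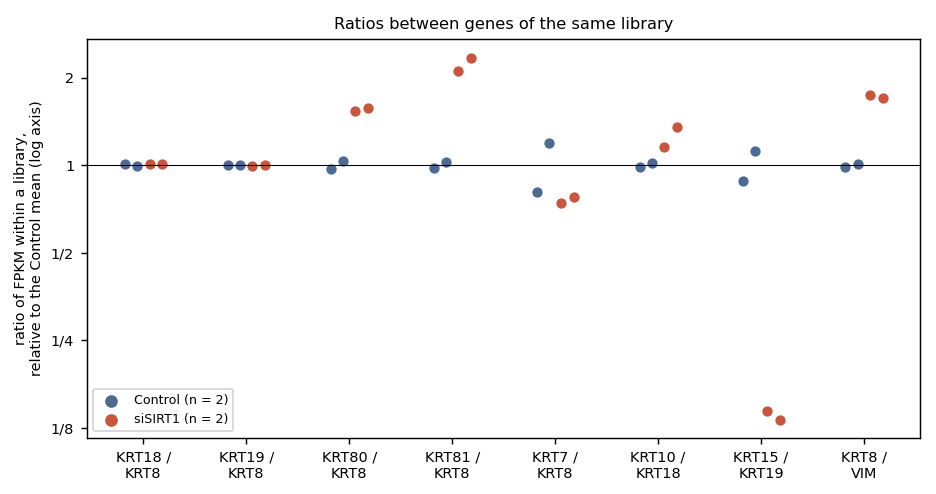
FPKM ratios between genes of the same library, divided by the Control mean of that ratio (log axis; blue Control, red siSIRT1, 2 libraries each). KRT18 and KRT19 kept their ratio to KRT8 within a few percent, KRT80 and KRT81 gained on KRT8, and KRT15 dropped against KRT19 to 0.138 of its Control mean.

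Next, the 31 keratins that are not members were examined. In 11 of them all 4 libraries were at 0, and KRT20 and KRT23, further keratins of simple epithelia, did not exceed 0.07 FPKM. KRT4, a type II keratin of moist stratified linings such as the oesophagus, was the only one to pass the filter, through its siSIRT1 values. It was at 0.16 and 0.22 FPKM in Control, about 3 and 4 reads, and at 2.83 and 2.70 FPKM in siSIRT1, about 51 and 50 reads. Its log2 fold change was 1.66 (SE 0.14, adjusted p = 7.11e-05), shrunk by the added 1. The mean was 14.6-fold higher in siSIRT1, from few Control reads, and the log2 fold change reached 3.31 under other settings that kept all 4 libraries. Chosen after their values were seen, KRT14, KRT5 and KRT6A had their highest value in siSIRT1 replicate 2, like KRT17, at 1.33, 1.20 and 0.93 FPKM. In siSIRT1 replicate 1 they were at 0.30, 0.37 and 0.42 FPKM, from about 4, 7 and 8 reads. The Control pair was at 0 and 0.18 FPKM for KRT14, 0.25 and 0.25 for KRT5, and 0 and 0 for KRT6A. Unlike KRT17, these genes did not overlap between the groups, on few reads. KRT5 and KRT14 are the keratin pair of basal epithelial cells.

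Proteins that tie keratin filaments to desmosomes and hemidesmosomes, the contacts with other cells and with the basement membrane, moved in both directions. Of 13 tested genes of 15 listed, 4 were called higher and 3 lower, with a median of 0.05 against 0.07 over all genes, of which 24.0% were called higher and 13.1% lower. Among desmosomal and filament linker genes, PKP2 went from 4.46 FPKM in both Control libraries to 7.28 and 9.43 FPKM (log2 fold change 0.77). DSP (desmoplakin), EVPL (envoplakin) and EPPK1 (epiplakin) rose by 0.49, 0.48 and 0.48 on the log2 scale. The call for DSP was lost without Control replicate 2 (adjusted p = 0.0522), and that for EPPK1 without Control replicate 1 or 2 (adjusted p = 0.0897 and 0.0757). The 2 integrin subunits of hemidesmosomes fell. ITGB4 was at 42.41 and 41.31 FPKM in the Control pair, against 14.67 and 14.79 FPKM in the siSIRT1 pair, a log2 fold change of -1.45 (adjusted p = 4.31e-06). ITGA6 fell by 0.75 on the log2 scale (adjusted p = 0.000881). PLEC, the linker plectin, fell by 0.21 (adjusted p = 0.0164), a call lost without Control replicate 1 or 2 (adjusted p = 0.233 and 0.156). JUP and PPL were not called, at log2 fold changes of -0.03 and 0.05. PKP3, named because its call changed with the scaling, was not called either (-0.18, adjusted p = 0.0785). It was called lower under each of the 4 scalings (adjusted p from 0.0230 to 0.0283) and with the replicate block (0.0403). The call for DSP was also lost without the filter (adjusted p = 0.0580), and that for PLEC without the mean-variance trend (0.0813).

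Among intermediate filament genes other than keratins, 7 of 15 were tested, with 2 called higher, 2 lower and a median of 0.14, beside the same 24.0% and 13.1% of all genes. VIM, the filament protein of mesenchymal cells, was at 2198.36 and 2048.59 FPKM in the Control pair, against 1503.48 and 1426.62 FPKM in the siSIRT1 pair. VIM fell with a log2 fold change of -0.53 (adjusted p = 0.00126, and 0.0953 without Control replicate 1). KRT8 was at 1.03 and 1.06 times VIM in Control and at 1.83 and 1.77 times VIM in siSIRT1. NES, the progenitor filament nestin, fell by 0.64 on the log2 scale. The nuclear lamins LMNB1 and LMNB2 were higher by 0.39 and 0.35, and LMNA and SYNM were not called (0.04 and 0.14). LMNA was called lower under quantile normalization (-0.11, adjusted p = 0.0150), and SYNM higher without siSIRT1 replicate 1 (0.34, adjusted p = 0.0196).

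Of 16 transcription factors that act in epithelia, 9 were tested by limma, 0 were called higher and 4 lower, with a median of -0.32. Over all genes 24.0% were called higher and 13.1% lower. Without the mean-variance trend 1 was called higher (GATA6, adjusted p = 0.0278) and 5 lower, GRHL1 being added (adjusted p = 0.0245). GATA6 passed the filter only through its siSIRT1 values (1.34 and 1.36 FPKM, against 0.90 and 0.89 in Control). GRHL1 passed only through its Control values (1.43 and 1.35 FPKM, against 0.80 and 0.94 in siSIRT1). These added calls are a description only. The 4 called lower in the main fit were SOX9 (log2 fold change -0.60), ELF3 (-0.55), TFAP2C (-0.41) and TFAP2A (-0.32). The calls for TFAP2A and TFAP2C were lost without Control replicate 1 (adjusted p = 0.0743 and 0.0822). FOXA2 and GRHL3 were not called, at -0.11 and -0.06. Of 6 factors that repress epithelial genes, 1 was not analysed here, 3 were tested by limma and 0 were called, nor did any have an unadjusted p under 0.05. SNAI1 went from 8.88 and 6.81 to 6.38 and 5.99 FPKM, and ZEB1 from 4.48 and 4.75 to 4.53 and 6.02 FPKM.

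**Figure D4:**
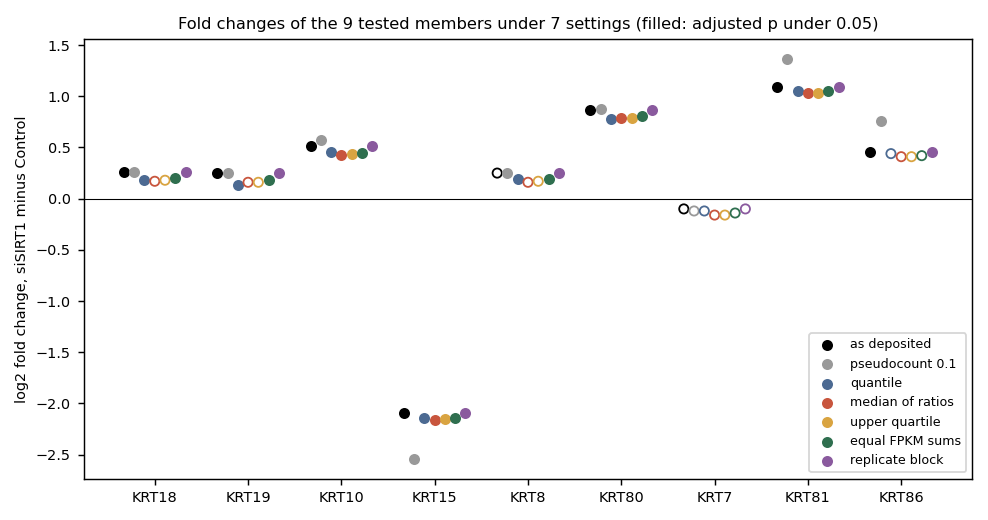
Log2 fold changes (siSIRT1 minus Control) of the 9 tested keratins under 7 settings, with filled points for an adjusted p under 0.05 and open points for the rest. KRT10, KRT15, KRT80 and KRT81 were filled throughout, KRT7 was open throughout, and KRT8, KRT18, KRT19 and KRT86 changed between filled and open.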

How the data were processed

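Per the labels, Trizol was used for RNA isolation and library preparation followed BGI. What the authors deposited are FPKM values of 16878 genes, in a table for each library. The submitters' processing notes name Bowtie2, HISAT, RSEM and ChIPseeker; versions, genome build and read length are not given in the sources used here. FPKM depends on each library's total, so abundant genes that change can shift all others.

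FPKM was fitted with limma 3.58.1 in R 4.3.3 (lmFit, eBayes with trend) on log2(FPKM + 1), two-sided, for genes whose mean reached 1 FPKM. Adjustment was by the Benjamini-Hochberg method over 12191 genes. The fit was tested on simulated data with the same spread in both groups and few changed genes. These libraries had unequal spread and many called genes, so the simulation does not show how the fit behaves here. Depth came from steps of 1 read in 67 to 82 single-exon genes per library, with a length offset of 80 bases, and read numbers are approximate. Coordinates and transcripts are GENCODE 44 on GRCh37. Members and lists were chosen with earlier results of these data known. Genes named are SIRT1, the members, other keratins whose mean reached 1 FPKM, such cell type markers and, of each list, called genes and the 2 most abundant uncalled ones; others are marked or describe the line. Alternatives were another pseudocount, no filter, 4 scalings, a replicate block, no trend and leaving out each library.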

Additional observations from a re-analysis of the deposited data

How the results depend on the processing

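The number of genes called (4521) ran from 2691 to 4608 when each library was left out in turn, and from 3531 to 5393 under the other settings. Rises made up 64.8% of the calls and 49.6%, 51.3% and 53.3% under median-of-ratios, upper-quartile and quantile scaling, where the median of all genes moved from 0.07 to at most 0.02 (log2). The number of members called (7) was 4 under median-of-ratios scaling, 4 under upper-quartile scaling, from 4 to 8 when each library was left out, and from 5 to 8 under the remaining settings that kept all 10 genes apart. With KRT81 and KRT86 summed it was 6 of 8. With a pseudocount of 0.1 the log2 fold changes of KRT15, KRT81 and KRT86 were -2.54, 1.36 and 0.76, against -2.09, 1.09 and 0.46 with 1. The log2 fold change of KRT7 (-0.10), which was not called, ran from -0.28 to 0.09 when each library was left out, changing sign without Control replicate 2. The log2 ratio of the summed type I level (0.25) was 0.17 under both median-of-ratios and upper-quartile scaling, and that of type II (0.27) was 0.18 and 0.19; with each library left out they ran from 0.20 to 0.31 and from 0.21 to 0.33. Among keratin partners 4 to 9 genes were called with each library left out, among epithelial transcription factors 2 to 4. Without the filter on low values, 2 of the other keratins (KRT4 and KRT6A) and 1 mesenchymal factor (SNAI2) were called. The cause of these shifts was not tested. Same-numbered libraries deviated together with a correlation of 0.123 across genes, and the labels do not say that a number marks a shared batch. With the replicate block 5393 genes and 8 members were called. Depth limits KRT17, KRT86 and KRT4, which rested on about 0 to 51 reads per library. It also limits KRT7, at about 41 and 57 reads in Control and about 43 in each siSIRT1 library. The same holds for KRT15 in siSIRT1 (about 27 and 24 reads) and KRT81 in Control (about 38 each).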
